A study of Mus musculus with 56 samples.

Results

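Macrophage-rich and macrophage-poor p53-null mouse mammary tumors were compared: 28 of the 56 tumors of the series, 14 at each end of a macrophage score. The score was the mean log2 value of 4 genes of macrophages: Csf1r, the receptor of the macrophage growth factor CSF1; Cd68, a lysosomal glycoprotein; Mrc1, the mannose receptor; and C1qa, a chain of complement C1q. Each gene was read on its probe set of highest mean. Tumors were ranked by the score within their own host genotype, and the 8 highest and 8 lowest of 32 tumors from wild-type (WT) hosts were joined with the 6 highest and 6 lowest of 24 tumors from Tgfb1 heterozygous (Het) hosts. The 28 tumors of middle rank were set aside.

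The tumors grew from p53-null mammary fragments that were not irradiated themselves, in female BALB/c hosts whose own mammary epithelium had been cleared at 3 weeks of age. Hosts were WT or Het for Tgfb1, the gene of transforming growth factor beta 1, and were irradiated or sham-irradiated 3 days before the fragments were transplanted. The series holds 23 tumors from irradiated and 9 from sham-irradiated WT hosts, and 18 from irradiated and 6 from sham-irradiated Het hosts (radiation dose: not stated in the labels). All tumor cells lacked p53 in every group, so the comparison says nothing of tumors that keep it. The macrophage-rich set held 4 tumors from irradiated and 4 from sham-irradiated WT hosts, with 4 irradiated and 2 sham-irradiated Het hosts, and the macrophage-poor set held 7 irradiated and 1 sham-irradiated WT hosts, with 4 irradiated and 2 sham-irradiated Het hosts. These splits did not pass a two-sided Fisher's exact test in WT hosts (p = 0.282) or in Het hosts (p = 1).

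Macrophages in the mammary gland arise from embryonic precursors and from blood monocytes, and depend on CSF1 or interleukin 34 acting on the receptor Csf1r. They take up dead cells and antibody-coated particles through phagocytic and Fc receptors, degrade them in lysosomes, present peptides on MHC class II and make C1q. In mouse mammary tumors, macrophages are known for promoting blood vessel growth, matrix remodelling and tumor cell spread.

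The score that chose the tumors is a description and was not tested. In WT hosts it ran from 10.93 to 12.30 (median 11.47) in macrophage-rich tumors, against 9.68 to 10.24 (median 10.20) in macrophage-poor tumors. In Het hosts it ran from 10.73 to 12.24 (median 11.01) in macrophage-rich tumors, against 9.30 to 10.02 (median 9.78) in macrophage-poor tumors. The ends were not set off from the middle: in WT hosts the last macrophage-rich tumor stood at 10.93 and the next at 10.89, and the first macrophage-poor tumor stood at 10.24 with its neighbour at 10.27. In Het hosts the same borders were 10.73 and 10.69 at the upper end, and 10.02 and 10.04 at the lower end. Of the 4 score genes, Mrc1 spread the most, with 8.48 to 12.21 in macrophage-rich tumors and 6.80 to 8.46 in macrophage-poor tumors. C1qa, at 12.02 to 13.54 in macrophage-rich tumors and 10.52 to 12.61 in macrophage-poor tumors, overlapped between the ends, as did Cd68 (9.17 to 11.86 and 7.88 to 9.75) and Csf1r (11.16 to 12.86 and 10.07 to 11.56) over both host genotypes.

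**Figure D1:**
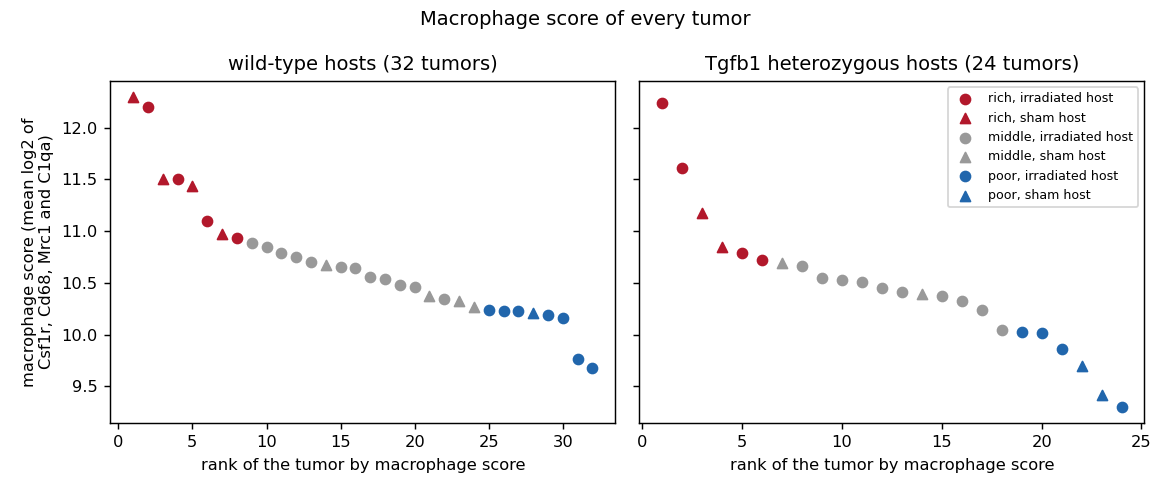
Macrophage score (mean log2 signal of Csf1r, Cd68, Mrc1 and C1qa) of each of the 56 tumors against its rank within its host genotype; colour marks the rank class, and the marker shows whether the host was irradiated. Scores fall without a gap at the borders of the rank classes, and the highest tumors reach 12.30 in WT and 12.24 in Het hosts.

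Before the results, some features of the arrays were compared between the classes. The epithelial junction score, the mean log2 of 18 genes of epithelial contacts, was below 9 in 8 of 14 macrophage-rich tumors and 1 of 14 macrophage-poor tumors. The control probe sets for 18S ribosomal RNA averaged 11.45 ± 1.35 in macrophage-rich tumors and 12.63 ± 0.65 in macrophage-poor tumors (SD, n = 14 each; two-sided p = 0.00449 over 100000 permutations within host genotype). Below 11 fell 5 macrophage-rich arrays, 0 macrophage-poor arrays and 4 arrays of middle rank. In WT hosts these were tumors 57, 59, 60, 61, 64 and 65, the highest tumor numbers there, and in Het hosts tumors 4, 19 and 29. No cause was tested. The difference between 3′ and 5′ control probe sets was 0.28 ± 0.15 in macrophage-rich and 0.23 ± 0.06 in macrophage-poor tumors (SD, n = 14 each; permutation p = 0.203). The array median was higher by 0.03 in macrophage-rich than in macrophage-poor tumors (permutation p = 0.0167). In addition, 2 arrays stood apart from their class: macrophage-rich tumor 46 of a sham-irradiated WT host, with endothelial genes at a mean of 11.25 where the other 7 WT macrophage-rich tumors lay between 7.06 and 8.48, and macrophage-poor tumor 16 of an irradiated WT host, with an epithelial junction score of 8.88 where the other 7 WT macrophage-poor tumors lay between 10.43 and 10.69. Leaving out both gave 1669 genes higher and 1479 lower in macrophage-rich tumors, beside the 1679 and 1420 reported next.

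With all 28 tumors and host genotype as a block, 1679 of 12504 genes rose and 1420 fell in macrophage-rich tumors (limma, Benjamini-Hochberg adjusted p threshold of 0.05). This is a background of 24.8% of genes called, 13.4% higher and 11.4% lower, against which every gene list below has to be read. The log2 difference reached at least 1 for 764 of the genes that rose and for 361 of those that fell, and its median over all genes was -0.02. With the epithelial junction score as a covariate, 325 genes (2.6%) were higher and 28 (0.224%) lower; 323 of the 325 and 27 of the 28 were also called without it. Among tumors with an epithelial junction score of at least 9, 6 macrophage-rich against 13 macrophage-poor, 238 genes (1.9%) were higher and 14 (0.112%) lower, all of them also called with 28 tumors. With the 18S value as a covariate the counts were 1020 (8.16%) higher and 579 (4.63%) lower. List counts given for another setting have to be read against the counts over all genes in that setting. These were 637 higher and 292 lower in WT tumors alone, and 356 and 117 in Het tumors alone. They were 1097 and 719 with the score ranked without Mrc1, and 1062 and 648 without arrays of 18S below 11. In whole-tumor RNA, more cells of a type and more RNA per cell cannot be told apart. The tumors were chosen by genes measured on the same arrays, so the counts for macrophage genes describe the chosen tumors and are not independent evidence for the choice.

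Among the 15 genes of lowest p that rose, Pik3r5, a regulatory subunit of phosphoinositide 3-kinase gamma, was at 7.0, 7.46 and 7.96 in macrophage-rich tumors, against 5.44, 6.23 and 6.51 in macrophage-poor tumors (lowest, median and highest log2 signal, WT hosts). In Het hosts Pik3r5 was at 6.75, 7.36 and 7.85 in macrophage-rich tumors, against 5.61, 5.92 and 6.34 in macrophage-poor tumors. All 14 macrophage-rich tumors thus lay above every macrophage-poor tumor of their host genotype, and the log2 difference was 1.32 ± 0.13 (± SE; adjusted p = 6.34e-07). Syk, the tyrosine kinase that Fc receptors signal through, ranged in WT hosts over 7.43 to 8.71 (median 8.12) in macrophage-rich tumors, against 6.04 to 6.85 (median 6.71) in macrophage-poor tumors. In Het hosts Syk ranged over 7.20 to 8.21 (median 7.66) in macrophage-rich tumors, against 5.81 to 6.90 (median 6.43) in macrophage-poor tumors. Its groups did not overlap in either host genotype, and the log2 difference was 1.41 ± 0.15 (adjusted p = 1.65e-06).

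Fcgr2b, the inhibitory Fc gamma receptor, showed in WT hosts 10.97 to 12.74 (median 11.58) in macrophage-rich tumors, against 9.29 to 10.75 (median 10.18) in macrophage-poor tumors. In Het hosts Fcgr2b showed 11.17 to 12.55 (median 11.46) in macrophage-rich tumors, against 9.47 to 10.13 (median 9.84) in macrophage-poor tumors. The log2 difference was 1.63 ± 0.19 (adjusted p = 4.67e-06), again with no overlap. Inpp5d, the phosphatase SHIP1 that opposes phosphoinositide 3-kinase, rose by 1.29 ± 0.16, and Lcp2, the adaptor SLP-76, by 1.30 ± 0.16. Nckap1l, the blood cell subunit of the WAVE actin complex, rose by 1.21 ± 0.14. Itga4, the alpha 4 integrin, rose by 1.45 ± 0.17, and Fermt3, the integrin activator kindlin-3, by 1.41 ± 0.17. Laptm5, a lysosomal membrane protein of blood cells, rose by 1.31 ± 0.15. Arrb2, a beta-arrestin that turns off and internalises receptors, rose by 1.07 ± 0.12.

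Selenop, the secreted selenium carrier, was at 12.59, 12.89 and 13.78 in macrophage-rich tumors, against 11.62, 12.14 and 12.36 in macrophage-poor tumors in WT hosts. In Het hosts it was at 12.63, 12.96 and 13.72 in macrophage-rich tumors, against 11.29, 11.64 and 11.99 in macrophage-poor tumors. Its log2 difference was 1.15 ± 0.14 (adjusted p = 1.13e-05), without overlap in either host genotype. The others among the 15 of lowest p were Papss2, which makes the sulfate donor of sulfotransferases (2.47 ± 0.28), Zeb2, a transcription factor of macrophages and of mesenchymal cells (1.91 ± 0.23), Pip4k2a, a phosphoinositide kinase (1.27 ± 0.16), and Rab3il1 (1.32 ± 0.16). All 15 remained past the test with the epithelial junction score as a covariate, with adjusted p from 5.13e-05 to 0.00365. Of 3 other probe sets of Laptm5, 2 passed (1.13 and 1.35) and 1 did not (0.0; adjusted p = 0.986).

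Among all genes tested, 30 (0.24%) separated the groups upward in both host genotypes and 1 (0.008%) downward. Besides those already named, the 30 included the kinase Btk, the immune receptor Pirb, the TGF-beta activating protein Nrros, the cytokine receptor chain Csf2rb, the matrix protein Tgfbi, and Plek, Hfe, P2ry6, Ms4a6c and Ms4a6d; their naming here was chosen after the values were seen. The 1 gene downward was Ctf1, cardiotrophin 1, a cytokine of the interleukin 6 family. In WT hosts Ctf1 was at 6.44, 7.45 and 8.39 in macrophage-rich tumors, against 8.52, 8.79 and 9.53 in macrophage-poor tumors. In Het hosts Ctf1 was at 6.99, 7.51 and 8.31 in macrophage-rich tumors, against 8.32, 8.44 and 9.18 in macrophage-poor tumors. The log2 difference was -1.23 ± 0.19 (adjusted p = 5.68e-05).

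**Figure D2:**
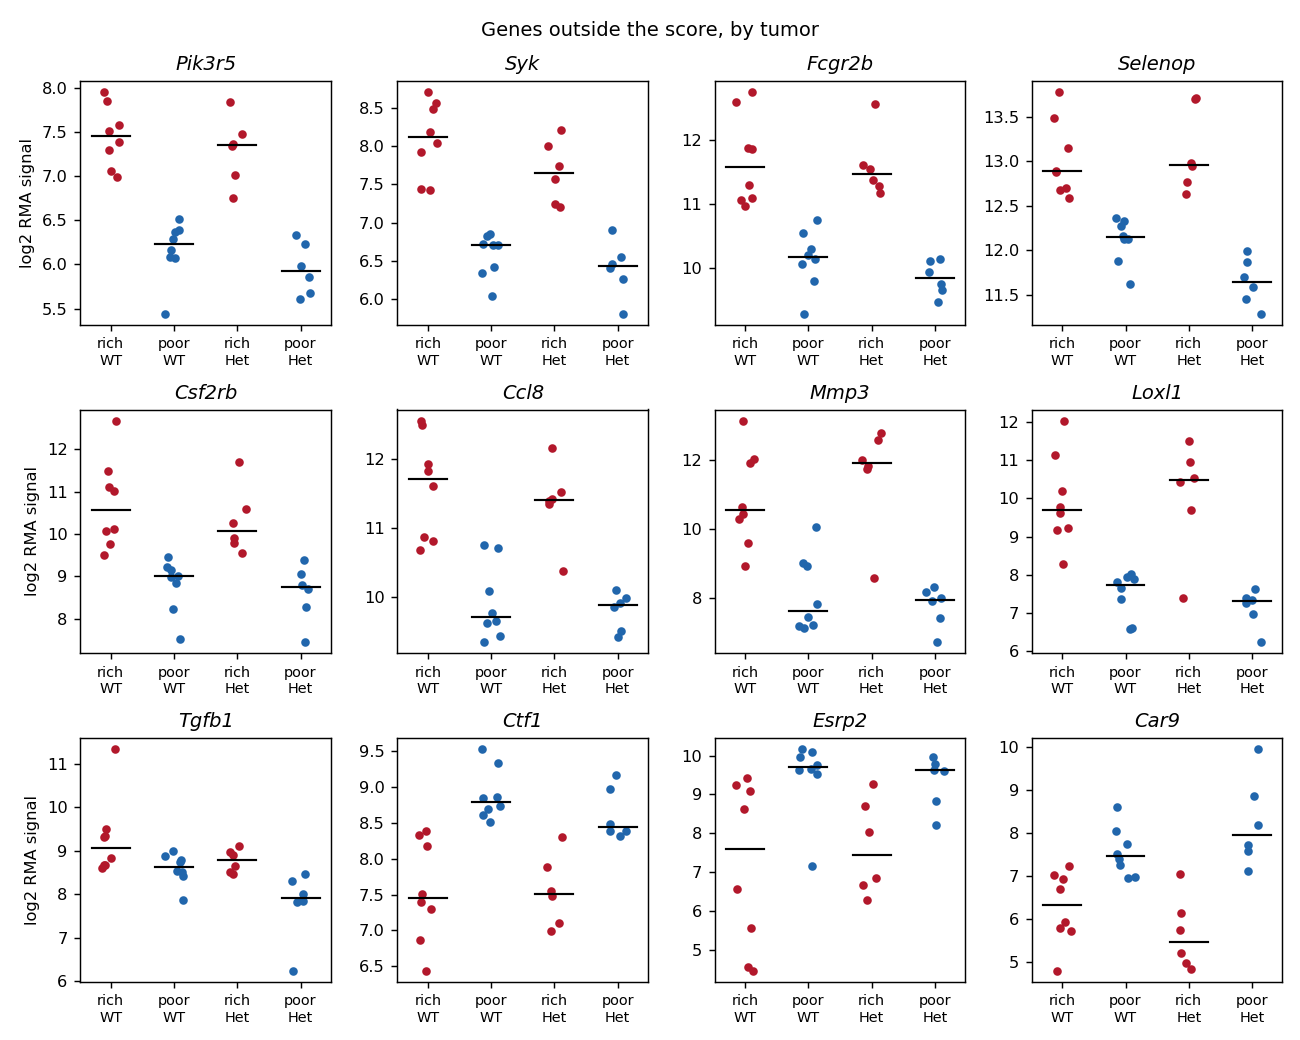
Log2 RMA signal of 12 genes outside the score in macrophage-rich (red) and macrophage-poor (blue) tumors of WT and Het hosts; each point is 1 tumor and each bar a median. Pik3r5, Syk, Fcgr2b, Selenop, Csf2rb and Ctf1 do not overlap in either host genotype, whereas Esrp2 spans 4.46 to 9.41 in WT macrophage-rich tumors.

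Spi1, the transcription factor PU.1 that directs the myeloid lineage, was itself among the macrophage genes that rose, by 1.13 ± 0.15 (adjusted p = 2.05e-05). PU.1 is known to bind purine-rich sites around GGAA, and RefSeq promoter windows (GRCm38.p6, 250 bases before to 50 after a start) were searched on both strands for 4 overlapping strings of letters: the short GAGGAA and the short GGAAGT, then GAGGAAGT, which contains both, and a longer form with one more A before GAGGAAGT and one more G after it. GAGGAAGT was picked for display after all 4 counts were seen. GAGGAAGT stood in 3.2% of all 32851 windows. Per window it stood in 82 of 1671 (4.91%) for genes that rose, 38 of 1518 (2.5%) for genes that fell and 386 of 12880 (3%) for all genes tested. Of the 30 genes whose groups separated upward, 24 had a window and 3 held GAGGAAGT, namely Inpp5d, Selenop and Pirb (12.5%). Per gene GAGGAAGT stood in 78 of 1302 (5.99%) for genes that rose, 34 of 1156 (2.94%) for genes that fell and 363 of 10053 (3.61%) for all genes tested. GAGGAA stood in 28.3% of all windows, and in 31.1% of those of genes that rose and 26.2% of those of genes that fell. GGAAGT stood in 23.8% of all windows, and in 28.1% and 23.3% of those of genes that rose and that fell, beside 27.4% for all genes tested. The longer form stood in 0.426% of all windows, in 20 windows of genes that rose and 2 of genes that fell, and in 0 windows of the genes whose groups separated upward. A match describes the letters in a window and shows no binding. The 3 windows follow, 5′ to 3′ on the gene's strand, with GAGGAAGT or its reverse complement in capitals: Inpp5d lies at chr1:87620062-87620361 (plus strand), Selenop at chr15:3270517-3270816 (plus strand, match on the other strand) and Pirb at chr7:3720333-3720632 (minus strand).
Inpp5d: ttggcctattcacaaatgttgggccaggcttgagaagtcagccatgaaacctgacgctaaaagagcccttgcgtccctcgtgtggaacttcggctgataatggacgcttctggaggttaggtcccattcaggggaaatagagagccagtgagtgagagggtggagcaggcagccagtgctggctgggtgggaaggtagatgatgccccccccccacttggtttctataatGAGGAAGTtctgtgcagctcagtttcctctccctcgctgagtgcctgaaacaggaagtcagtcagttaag
Selenop: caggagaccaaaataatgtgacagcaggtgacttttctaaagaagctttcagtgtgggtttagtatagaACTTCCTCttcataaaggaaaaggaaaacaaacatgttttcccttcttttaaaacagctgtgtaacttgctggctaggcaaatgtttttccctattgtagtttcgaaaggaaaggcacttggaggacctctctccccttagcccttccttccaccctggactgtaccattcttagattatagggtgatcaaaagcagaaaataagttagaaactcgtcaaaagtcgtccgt
Pirb: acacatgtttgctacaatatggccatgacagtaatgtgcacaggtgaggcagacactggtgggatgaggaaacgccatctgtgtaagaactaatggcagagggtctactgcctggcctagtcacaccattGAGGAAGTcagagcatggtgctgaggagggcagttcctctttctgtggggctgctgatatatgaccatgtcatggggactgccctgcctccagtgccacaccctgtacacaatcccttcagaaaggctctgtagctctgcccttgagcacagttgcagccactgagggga

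Of the macrophage markers outside the score, measured on the same arrays that chose the tumors, 16 of 18 rose and none fell (median log2 difference 1.09, against -0.02 over all genes), and 10 rose with the epithelial covariate (median 0.91). Maf, a transcription factor of tissue macrophages, was in WT hosts at 9.37 to 11.91 (median 11.04) in macrophage-rich tumors, against 7.99 to 9.81 (median 9.07) in macrophage-poor tumors, and its log2 difference was 1.91 ± 0.25 (adjusted p = 1.38e-05). Cd53, a leukocyte tetraspanin, rose by 1.19 ± 0.16. The 2 markers that did not pass were Cd14, the lipopolysaccharide co-receptor (-0.40), and Siglec1, the sialic acid receptor (-0.07). Complement genes gave 8 of 12 higher and none lower (median 1.07; 5 with the epithelial covariate, median 0.97). Among them Itgb2, the beta 2 chain of complement receptors, rose by 1.09 ± 0.15, C5ar1, the receptor of C5a, by 1.38 ± 0.23, C1qc by 1.04 ± 0.18 and the protease C1ra by 1.29 ± 0.23.

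All 8 Fc receptor and adaptor genes rose (median 1.04; 5 with the epithelial covariate, median 0.91), among them the activating receptor Fcgr3 by 1.33 ± 0.21 and the shared signalling chain Fcer1g by 1.03 ± 0.17. Of 13 phagocytic and scavenger receptors, 12 rose (median 1.44; 6 with the epithelial covariate, median 1.17). Their count was 7 with the ranking without Mrc1 (median 1.01). Mertk and Axl, kinases that recognise dying cells, rose by 1.43 ± 0.22 and 1.66 ± 0.27. Stab1, a scavenger receptor, rose by 1.93 ± 0.31, and the lectin Clec4n by 1.85 ± 0.32. Of 14 lysosomal genes 7 rose and none fell (median 0.48; 5 with the epithelial covariate, median 0.44). Ctsk, cathepsin K, a collagen-degrading protease also of fibroblasts and osteoclasts, ranged in Het hosts over 7.25 to 12.68 (median 10.24) in macrophage-rich tumors, against 6.79 to 7.62 (median 7.38) in macrophage-poor tumors, with a log2 difference of 2.46 ± 0.36. Lgmn, legumain, rose by 1.21 ± 0.18, Hexa by 0.88 ± 0.15 and Psap, prosaposin, by 0.53 ± 0.10.

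Genes linked with alternative activation gave 5 of 9 higher (median 0.79; 2 with the epithelial covariate, median 0.83). Cd163, the haemoglobin scavenger receptor, rose by 1.70 ± 0.31, the lectin Mgl2 by 1.66 ± 0.31 and the chemokine Ccl24 by 1.17 ± 0.27. Arg1, arginase 1, did not pass (-0.50). Genes linked with inflammatory activation gave 3 of 11 higher (median 0.80; 2 with the epithelial covariate, median 0.70). The T cell co-stimulator Cd86 rose by 1.30 ± 0.21, Irf5 by 0.85 ± 0.15 and Il6 by 1.96 ± 0.48, whereas the chemokine Cxcl9 (1.06 ± 0.41, adjusted p = 0.0607), Tnf (-0.25) and Nos2 (-0.08) did not pass. A second probe set of Irf5 gave 0.05 (adjusted p = 0.873). When a probe set had to exceed the median of all values on 14 arrays, 9 of the 11 inflammatory genes were kept and 2 rose. The lost call was that of a gene this filter removed. With the ranking without Mrc1, 1 of the 4 score genes, 3 of 9 alternative genes (median 0.31) and 5 of 11 inflammatory genes (median 0.999) were higher. The share of genes called thus changed order between the lists. The inflammatory list had the higher median in both rankings. No test set the alternative list against the inflammatory list.

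Lipid handling genes gave 6 of 13 higher and 1 lower (median 0.47; 0 with the epithelial covariate, median 0.43; 3 with the 18S covariate). Trem2, a lipid-sensing receptor, rose by 0.93 ± 0.18 and Apoe by 1.0 ± 0.20, and Cd9, a tetraspanin also of epithelium, fell by 0.42 ± 0.12. Without tumor 46 (WT, sham) or without tumor 52 (Het, sham) 3 of the 13 were higher. Of 14 Toll-like receptors and sensors 6 rose and 1 fell (median 0.43; 2 and 0 with the epithelial covariate, median 0.47). Tlr13 rose by 1.26 ± 0.19 and Tlr7 by 1.13 ± 0.22; Tlr3, a sensor of double-stranded RNA, fell (-0.66) and lost its call without tumor 25 (WT, irradiated), tumor 15 (Het, sham) or tumor 29 (Het, irradiated). Heme and iron genes gave 3 of 8 higher and 1 lower (median 0.42; 2 and 0 with the epithelial covariate, median 0.59). The metal transporter Slc11a1 rose by 0.87 ± 0.12, and Tfrc, the transferrin receptor, fell by 0.99 ± 0.31. Heme oxygenase Hmox1 (1.16 ± 0.43, adjusted p = 0.0485) lost its call without any 1 of 21 arrays.

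Ligands and receptors that keep or attract macrophages rose together: 13 of 18 were higher and none lower (median 1.31; 5 with the epithelial covariate, median 0.87). Csf2rb, the shared beta chain of the receptors for GM-CSF, interleukin 3 and interleukin 5, was in WT hosts at 9.50, 10.57 and 12.68 in macrophage-rich tumors, against 7.53, 9.0 and 9.47 in macrophage-poor tumors. In Het hosts Csf2rb was at 9.55, 10.08 and 11.71 in macrophage-rich tumors, against 7.45, 8.75 and 9.39 in macrophage-poor tumors. The groups did not overlap, and the log2 difference was 1.82 ± 0.29 (adjusted p = 0.000102). The chemokine Ccl8 rose by 1.63 ± 0.21, Ccl9 by 1.66 ± 0.26 and the chemokine receptor Ccr1 by 1.32 ± 0.23.

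Both ligands of Csf1r rose. Csf1 was in WT hosts at 9.38 to 11.42 (median 10.42) in macrophage-rich tumors, against 8.69 to 10.25 (median 9.70) in macrophage-poor tumors, with a log2 difference of 0.94 ± 0.23 (adjusted p = 0.00372). Il34 rose by 1.07 ± 0.26 (adjusted p = 0.00413). In both host genotypes the ranges of Csf1 overlapped, and of 3 other probe sets of Csf1 one passed (1.09, adjusted p = 0.000793) and 2 did not (0.28 and 0.55, adjusted p = 0.121 and 0.0941). Ccl2, the main attractant of monocytes, was in WT hosts at 7.82 to 12.74 (median 8.98) in macrophage-rich tumors, against 7.19 to 8.56 (median 7.60) in macrophage-poor tumors and in Het hosts at 8.40 to 11.20 (median 10.21) in macrophage-rich tumors, against 7.50 to 9.29 (median 8.02) in macrophage-poor tumors. Its log2 difference was 1.76 ± 0.38 (adjusted p = 0.00139). With the epithelial junction score as a covariate Csf1, Il34 and Ccl2 did not pass (adjusted p = 0.139, 0.141 and 0.174).

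**Figure D3:**
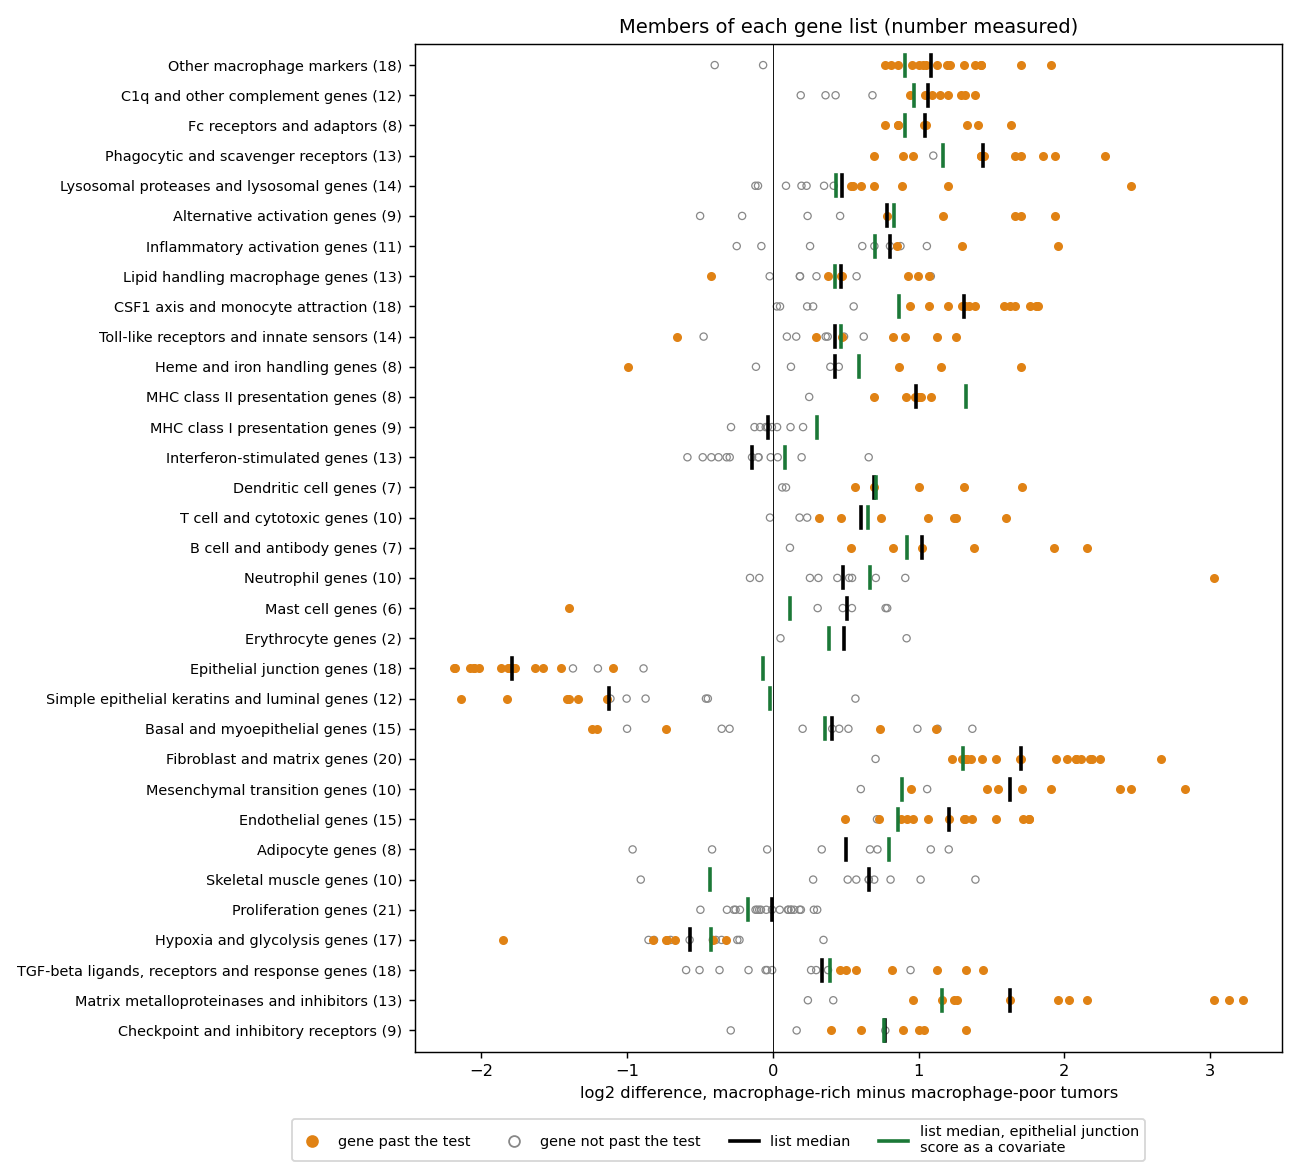
Log2 difference, macrophage-rich minus macrophage-poor tumors, of each measured member of 33 gene lists; filled points passed the limma test, black bars are list medians and green bars the medians with the epithelial junction score as a covariate. Epithelial junction genes have a median of -1.79 and fibroblast and matrix genes of 1.70.

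Of 8 MHC class II genes 7 rose (median 0.98), and 7 rose with the epithelial covariate; H2-DMa, a peptide-loading chain, rose by 0.99 ± 0.20, its partner H2-DMb2 by 1.08 ± 0.24 and the alpha chain H2-Aa by 1.0 ± 0.33. The count was 3 of 8 with the 18S covariate or with array weights, 2 in WT tumors alone and 0 in Het tumors alone, which hold fewer tumors. With 1 tumor left out, 3 of the 8 were higher without tumor 59 (WT, irradiated), 4 without tumor 52 (Het, sham) and 4 without tumor 23 (Het, irradiated), and H2-Aa lost its call without tumor 59 (log2 difference 0.91, adjusted p = 0.0515). Of 9 MHC class I genes and 13 interferon-stimulated genes, 0 passed in either direction (medians -0.03 and -0.14). The peptide transporter Tap1 had a log2 difference of -0.29 ± 0.28 and the interferon-induced protease Usp18 of -0.58 ± 0.45.

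No interferon gene passed the test of a difference between host genotypes, and the values of the list are given for each. In WT hosts its mean log2 signal was 8.73 to 10.48 (median 9.41) in macrophage-rich tumors, against 7.18 to 10.46 (median 9.35) in macrophage-poor tumors. In Het hosts it was 8.10 to 8.99 (median 8.54) in macrophage-rich tumors, against 8.82 to 10.60 (median 9.29) in macrophage-poor tumors. Macrophage-rich minus macrophage-poor differences were above 0 for 13 of 13 interferon genes in WT hosts (median 0.57, against -0.009 over all genes). In Het hosts they were above 0 for 1 of 13 (median -1.04, against -0.03 over all genes). For MHC class I genes they were above 0 for 9 of 9 in WT and 0 of 9 in Het hosts. Among WT macrophage-poor tumors, tumor 16 had an MHC class I mean of 9.73, and the others 10.9 to 11.76. Tested in Het tumors alone, 2 of 13 interferon genes were lower, and 0 in WT tumors alone. With the ranking without Mrc1, over both host genotypes, the interferon median was 0.41 and 1 gene was higher. The members of each list share arrays and move together, so the counts are not counts of independent observations.

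Across all 12504 genes, 0 (0%) passed the limma test of whether the macrophage-rich minus macrophage-poor difference differed between Het and WT hosts; 294 had an unadjusted p under 0.05 and the lowest adjusted p was 0.999. The genes of lowest p were Jam2, a junctional adhesion molecule, whose difference was greater in Het than in WT hosts by 2.12 on the log2 scale, Tmem150a by 1.05 and Smoc2, a matrix protein, by 1.21. In the other direction they were Rhd (-0.57), Lppos (-0.67) and the RNA editing enzyme Adar (-0.92). The Jam2 values include tumor 46, at 9.16.

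**Figure D4:**
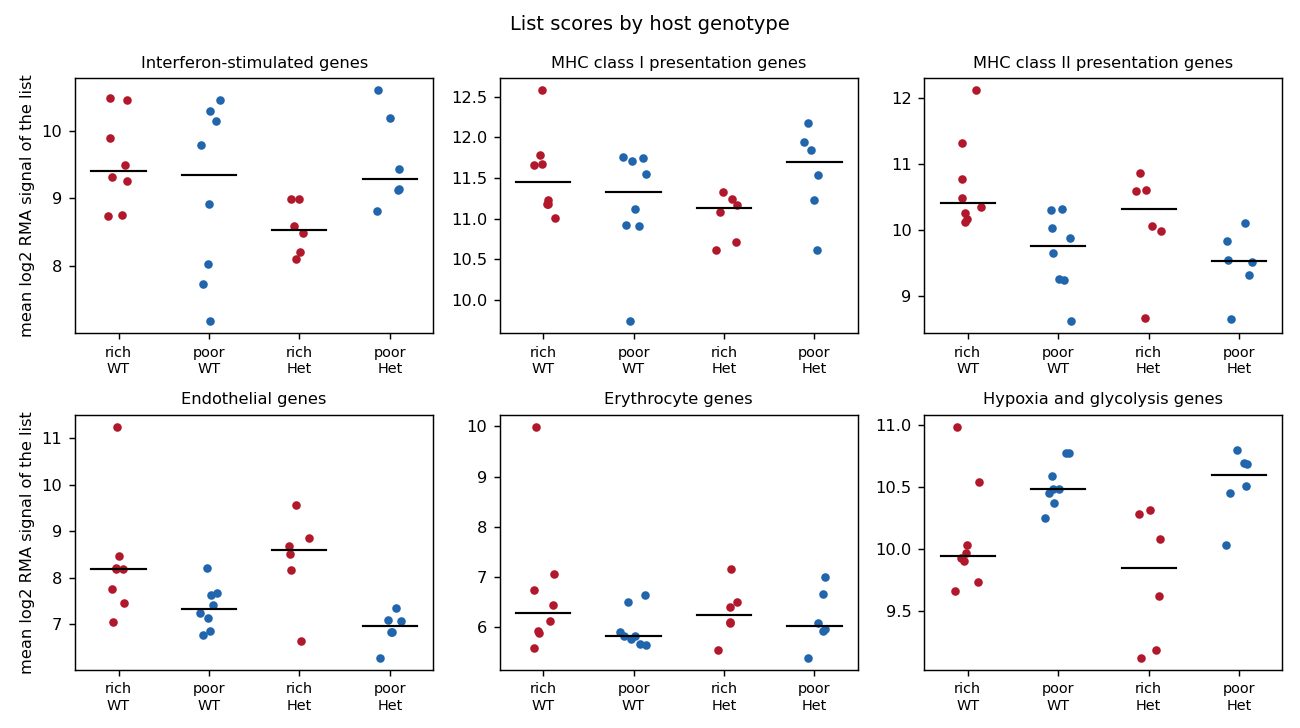
Mean log2 RMA signal of 6 gene lists in macrophage-rich (red) and macrophage-poor (blue) tumors of WT and Het hosts; each point is 1 tumor and each bar a median. Interferon-stimulated genes lie at 8.10 to 8.99 in Het macrophage-rich tumors and 8.82 to 10.60 in Het macrophage-poor tumors, and 1 WT macrophage-rich tumor stands alone in the endothelial (11.25) and erythrocyte (9.99) lists.

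Among the other leukocyte lists, most dendritic cell, T cell and B cell genes rose, and most neutrophil and mast cell genes did not. Of 7 dendritic cell genes 5 rose (median 0.70; 2 with the epithelial covariate, median 0.71), among them Irf8, a transcription factor of dendritic cells and macrophages, by 1.31 ± 0.19 and Fscn1, fascin, by 1.71 ± 0.29. Of 3 other Fscn1 probe sets 2 passed (1.19 and 1.36, adjusted p = 0.00462 and 0.000267) and 1 did not (0.12, adjusted p = 0.497). Of 10 T cell and cytotoxic genes 7 rose (median 0.60; 1 with the epithelial covariate, median 0.65; 4 with the 18S covariate). The list was low: 5 of the 10 had a mean below the median of all values. When a probe set had to exceed that median on 14 arrays rather than 6, 6 genes were kept and 4 rose. The granzymes Gzma and Gzmb rose by 1.24 ± 0.28 and 1.60 ± 0.39, and Cd3g, a chain of the T cell receptor complex, by 1.26 ± 0.33. Cd3g was low in most tumors, at 5.14 to 9.54 (median 5.72) in macrophage-rich tumors, against 4.34 to 5.28 (median 4.52) in macrophage-poor tumors in WT hosts. Cd4 and Cd8a did not pass (0.24 and 0.18).

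Of 7 B cell and antibody genes 6 rose (median 1.02; 3 with the epithelial covariate, median 0.92; 3 with the 18S covariate). Cd22, a B cell receptor inhibitor, rose by 1.02 ± 0.18, the antibody heavy chain Igha by 2.16 ± 0.49 and the joining chain Jchain by 1.93 ± 0.54, which ranged in WT hosts over 5.03 to 10.92 (median 6.99) in macrophage-rich tumors, against 4.27 to 6.41 (median 5.36) in macrophage-poor tumors. Of 10 neutrophil genes 1 rose, the gelatinase Mmp9, which macrophages also make; Csf3r, the receptor of the neutrophil growth factor, did not pass (0.52 ± 0.23, adjusted p = 0.0915). Without tumor 54 (WT, irradiated) 2 rose. Of 6 mast cell genes 1 fell, Kit, which luminal epithelium also expresses; its call (-1.40 ± 0.49) was lost without any 1 of 14 arrays. The mast cell protease Cma1 (0.77 ± 0.39) and the erythroid enzyme Alas2 (0.92 ± 0.55) did not pass.

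Stromal genes rose with the macrophage genes. Of 20 fibroblast and matrix genes 19 rose and none fell (median 1.70; 14 with the epithelial covariate, median 1.31, and 10 among tumors with an epithelial junction score of at least 9). The count was 13 with the ranking without Mrc1 (median 1.10). Loxl1, an enzyme that cross-links elastin and collagen, was in WT hosts at 8.28, 9.70 and 12.04 in macrophage-rich tumors, against 6.58, 7.73 and 8.03 in macrophage-poor tumors. In Het hosts Loxl1 was at 7.40, 10.49 and 11.49 in macrophage-rich tumors, against 6.24, 7.31 and 7.62 in macrophage-poor tumors. The groups were apart in WT hosts and overlapped by 1 macrophage-rich tumor in Het hosts, and the log2 difference was 2.66 ± 0.36 (adjusted p = 2.02e-05). The collagens Col5a1, Col3a1 and Col1a2 rose by 2.19 ± 0.30, 1.33 ± 0.19 and 1.32 ± 0.20. The mean log2 signal of the list in WT hosts was 10.83 to 12.08 (median 11.62) in macrophage-rich tumors, against 9.35 to 10.20 (median 10.06) in macrophage-poor tumors, without overlap. In Het hosts it was 9.80 to 12.52 (median 12.08) in macrophage-rich tumors, against 8.91 to 10.23 (median 9.82) in macrophage-poor tumors, with overlap. Whether fibroblast content has a part in the other differences was not tested.

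Matrix proteases and their inhibitors gave 11 of 13 higher and none lower (median 1.63; 6 with the epithelial covariate, median 1.16). Ranking without Mrc1 gave 8 of 13 higher (median 1.25). Mmp3, stromelysin 1, was in WT hosts at 8.92, 10.54 and 13.14 in macrophage-rich tumors, against 7.12, 7.62 and 10.05 in macrophage-poor tumors. In Het hosts Mmp3 was at 8.57, 11.92 and 12.77 in macrophage-rich tumors, against 6.71, 7.95 and 8.30 in macrophage-poor tumors. Its log2 difference of 3.23 ± 0.44 (adjusted p = 2.16e-05) came with 12 of 14 macrophage-rich tumors above every macrophage-poor tumor of their host genotype. Mmp9 rose by 3.03 ± 0.41, the gelatinase Mmp2 by 2.03 ± 0.31 and Plau, the urokinase plasminogen activator, by 1.63 ± 0.27.

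Of 15 endothelial genes 14 rose (median 1.21), and 0 passed with the epithelial covariate (median 0.86). The adhesion molecule Pecam1 rose by 1.53 ± 0.39, the sialomucin Emcn by 1.31 ± 0.33 and the phosphatase Ptprb by 0.92 ± 0.21. Pecam1 in WT hosts was at 7.19 to 12.26 (median 7.88) in macrophage-rich tumors, against 6.54 to 7.97 (median 6.97) in macrophage-poor tumors, the highest being tumor 46. The count depended on the setting. With the 18S covariate 7 of the 15 were higher (1020 of all genes), and 7 without arrays of 18S below 11 (1062 of all genes). With the ranking without Mrc1 it was 1 (median 0.74), against 1097 of all genes. It was 1 in WT tumors alone (637 of all genes) and 5 in Het tumors alone (356 of all genes). Without tumors 46 and 16 together it was 12 (1669 of all genes). Of 8 adipocyte genes and 10 skeletal muscle genes 0 passed; Fabp4 had 1.08 ± 0.42 (adjusted p = 0.0566) and Adipoq 1.21 ± 0.67 (adjusted p = 0.192).

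Of 18 epithelial junction genes 15 fell and none rose (median -1.79). With the 18S covariate 3 were lower (median -1.39), and without arrays of 18S below 11 the count was 10 (median -1.31). It was 0 in WT tumors alone and 2 in Het tumors alone, with medians of -1.95 and -1.61 over fewer tumors. Of all genes, 292 were lower in WT tumors alone and 117 in Het tumors alone. Esrp2, a splicing regulator of epithelial cells, was in WT hosts at 4.46, 7.59 and 9.41 in macrophage-rich tumors, against 7.16, 9.71 and 10.17 in macrophage-poor tumors. In Het hosts Esrp2 was at 6.27, 7.44 and 9.27 in macrophage-rich tumors, against 8.22, 9.62 and 9.96 in macrophage-poor tumors. The ranges overlapped in both host genotypes, and 8 of 14 macrophage-rich tumors lay below every macrophage-poor tumor of their own host genotype. The log2 difference was -2.05 ± 0.51 (adjusted p = 0.00439). The trafficking protein Rab25 fell by 2.05 ± 0.46, the transcription factor Grhl2 by 1.81 ± 0.42 and the desmosomal protein Pkp3 by 1.46 ± 0.32. The junction list is the covariate used throughout, so it was not counted in that fit.

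Simple keratins and luminal genes gave 6 of 12 lower (median -1.12; 0 with the epithelial covariate, median -0.02; 0 with the 18S covariate). Elf5, a transcription factor of luminal progenitors, fell by 2.13 ± 0.58, Krt18 by 1.33 ± 0.40 and Cd24a by 1.14 ± 0.31. The count of lower genes was 1 of 12 without arrays of 18S below 11 (median -0.83) and 1 with the ranking without Mrc1 (median -0.90). With 1 tumor left out it was 3 of 12 without tumor 3 or 60 (WT, sham), 14, 21, 25 or 59 (WT, irradiated), 19 (Het, sham), or 7 or 29 (Het, irradiated). Of 15 basal and myoepithelial genes 2 were higher and 3 lower, not far from the 13.4% and 11.4% of all genes. The counts were 0 and 0 with the epithelial or the 18S covariate. Leaving out 1 array gave 0 to 4 higher and 1 to 3 lower. The integrin Itga6 fell by 0.73 ± 0.23, with a second probe set at -0.71 (adjusted p = 0.052). The smooth muscle protein Tagln (1.12 ± 0.40) lost its call without any 1 of 19 arrays.

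Mesenchymal transition genes gave 8 of 10 higher (median 1.62; 3 with the epithelial covariate, median 0.89). Zeb1, a repressor of epithelial genes, was in WT hosts at 7.33 to 10.79 (median 9.67) in macrophage-rich tumors, against 6.63 to 8.03 (median 6.97) in macrophage-poor tumors and in Het hosts at 6.39 to 10.81 (median 10.04) in macrophage-rich tumors, against 6.27 to 7.09 (median 6.80) in macrophage-poor tumors, with a log2 difference of 2.45 ± 0.39 (adjusted p = 0.0001). Vim, vimentin, rose by 1.54 ± 0.25, and Prrx1, a mesenchymal transcription factor, by 2.38 ± 0.41. Among tumors with an epithelial junction score of at least 9, 1 of the 10 was higher (median 0.95). These genes are expressed by fibroblasts, and vimentin by macrophages too. The part of each cell type, tumor cells included, cannot be told apart in whole-tumor RNA.

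**Figure D5:**
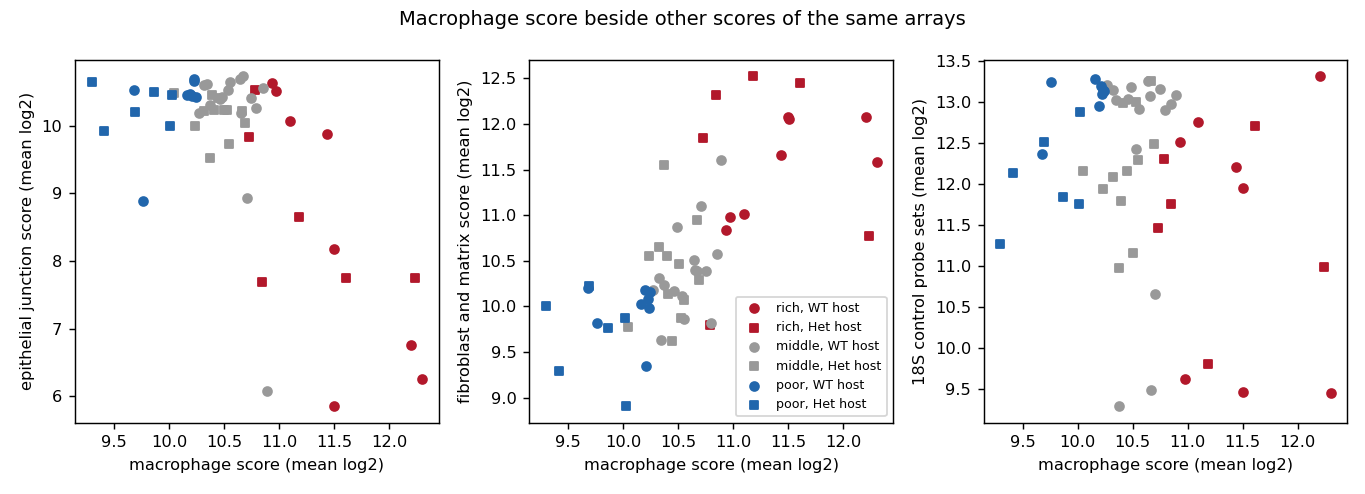
Macrophage score of each of the 56 tumors against its epithelial junction score, its fibroblast and matrix score and its 18S control value (all mean log2); colour marks the rank class and the marker the host genotype. In macrophage-rich tumors the epithelial junction score spans 5.85 to 10.63 and 18S 9.44 to 13.31, against 8.88 to 10.69 and 11.27 to 13.28 in macrophage-poor tumors.

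Genes of the TGF-beta pathway, which the host genotype concerns, gave 7 of 18 higher and none lower (median 0.34; 2 with the epithelial covariate, median 0.39). Nrros, which holds latent TGF-beta on macrophages and microglia, was in WT hosts at 8.37, 8.82 and 10.25 in macrophage-rich tumors, against 7.05, 7.75 and 7.93 in macrophage-poor tumors. In Het hosts Nrros was at 8.05, 8.86 and 9.73 in macrophage-rich tumors, against 6.72, 7.31 and 7.48 in macrophage-poor tumors. Its log2 difference was 1.44 ± 0.19 (adjusted p = 1.53e-05) without overlap in either host genotype. Tgfbi, a matrix protein induced by TGF-beta, rose by 1.32 ± 0.24, and the receptor Tgfbr1 by 0.50 ± 0.13.

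Tgfb1 itself was in WT hosts at 8.60, 9.07 and 11.34 in macrophage-rich tumors, against 7.86, 8.63 and 9.0 in macrophage-poor tumors. In Het hosts Tgfb1 was at 8.46, 8.78 and 9.10 in macrophage-rich tumors, against 6.24, 7.92 and 8.45 in macrophage-poor tumors. The log2 difference was 0.82 ± 0.23 (adjusted p = 0.0117), and it did not pass with the epithelial covariate (0.82, adjusted p = 0.143). The highest value, 11.34, was that of tumor 46. Bambi, a decoy receptor of the TGF-beta family, fell by 1.05 ± 0.19.

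Checkpoint and inhibitory receptor genes gave 6 of 9 higher and none lower (median 0.77; 2 with the epithelial covariate, median 0.76). Pirb, an inhibitory receptor for MHC class I on myeloid cells, was in WT hosts at 7.20 to 8.34 (median 7.59) in macrophage-rich tumors, against 5.30 to 7.14 (median 6.58) in macrophage-poor tumors and in Het hosts at 7.11 to 8.88 (median 7.86) in macrophage-rich tumors, against 5.90 to 6.96 (median 6.44) in macrophage-poor tumors. The groups did not overlap, and the log2 difference was 1.33 ± 0.18 (adjusted p = 2.21e-05). Sirpa, the receptor of the signal CD47, rose by 1.04 ± 0.19, with other probe sets at 0.68 (adjusted p = 0.0102) and 0.34 (adjusted p = 0.167). Vsir and Havcr2 rose by 1.0 ± 0.23 and 0.89 ± 0.24. Cd274, the ligand PD-L1, did not pass (0.16).

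Among the 15 genes of lowest p that fell, F3, tissue factor, which starts blood coagulation, was in WT hosts at 6.87 to 10.64 (median 8.37) in macrophage-rich tumors, against 9.46 to 11.46 (median 10.52) in macrophage-poor tumors and in Het hosts at 7.36 to 9.70 (median 8.20) in macrophage-rich tumors, against 10.17 to 11.45 (median 10.86) in macrophage-poor tumors, with a log2 difference of -2.10 ± 0.32 (adjusted p = 5.94e-05). Car9, the hypoxia-induced carbonic anhydrase 9, was in WT hosts at 4.79, 6.31 and 7.22 in macrophage-rich tumors, against 6.95, 7.45 and 8.59 in macrophage-poor tumors. In Het hosts Car9 was at 4.82, 5.47 and 7.03 in macrophage-rich tumors, against 7.10, 7.95 and 9.95 in macrophage-poor tumors. Its groups overlapped narrowly in WT hosts and were apart in Het hosts, with a log2 difference of -1.85 ± 0.31 (adjusted p = 0.000175). The tRNA synthetase Tarsl2 fell by 1.24 ± 0.17, the ubiquitin ligase Rnf128 by 1.95 ± 0.28, the kinase Tnik by 1.96 ± 0.35 and Col9a2, a collagen IX chain, by 2.13 ± 0.37. Tmem54, Neto2, Gk5 and Ss18l2 fell by 2.21, 1.25, 1.44 and 1.33. With the epithelial covariate Tarsl2, Rnf128, Ctf1, F3, Ss18l2, Car9 and Neto2 remained past the test, and Gk5, Tnik, Bambi and Tmem54 did not.

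Hypoxia and glycolysis genes gave 7 of 17 lower and none higher (median -0.57; 1 with the epithelial covariate, median -0.42; 4 with the 18S covariate). Ldha, lactate dehydrogenase A, fell by 0.41 ± 0.10 and the phosphofructokinases Pfkp and Pfkl by 0.67 ± 0.17 and 0.73 ± 0.20. Leaving out 1 array gave 5 to 11 lower, the 11 being without tumor 46. The count was 2 of 17 with the ranking without Mrc1 (median -0.53) and 3 without arrays of 18S below 11 (median -0.36). The mean log2 signal of the list was 9.66 to 10.99 (median 9.94) in macrophage-rich tumors, against 10.25 to 10.77 (median 10.48) in macrophage-poor tumors in WT hosts. Of 21 proliferation genes 0 passed (median -0.01): the nuclear antigen Mki67 had -0.31 ± 0.14 (adjusted p = 0.0925) and the topoisomerase Top2a 0.30 ± 0.17 (adjusted p = 0.198).

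Host irradiation was not seen to move the macrophage score itself over all 56 tumors. In WT hosts the score was 10.60 ± 0.54 in tumors of irradiated hosts (SD, n = 23) and 10.90 ± 0.72 in tumors of sham-irradiated hosts (SD, n = 9), a difference of -0.29 (two-sided permutation test, p = 0.237, 100000 permutations). In Het hosts it was 10.48 ± 0.64 in tumors of irradiated hosts (SD, n = 18) and 10.37 ± 0.69 in tumors of sham-irradiated hosts (SD, n = 6), a difference of 0.11 (two-sided exact permutation test, p = 0.754). With host irradiation as a term beside host genotype, 1552 genes were higher and 1282 lower in macrophage-rich than in macrophage-poor tumors.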

How the data were processed

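Total RNA of 56 tumors was labelled (100 ng per array) and hybridised to Affymetrix mouse arrays, per the labels' protocols. The authors deposited log2 values per probe set, made with RMA, per the submitters' processing notes; version: not given in the sources used here. Array medians of 5.92 to 6.00 in WT and 5.57 to 5.71 in Het hosts did not overlap; no label says whether the genotypes were normalised apart. Ranking, ranges and the block stayed within host genotype. Of 45101 probe sets, 34958 with 1 gene symbol were used. A probe set had to exceed 5.826, the median value of the table, on 6 or more arrays, and the one of highest mean stood for its gene. Symbols of 12463 of 12504 genes were matched by gene identifier to RefSeq (GRCm38.p6).

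Differences are log2 values of macrophage-rich minus macrophage-poor tumors, fitted with limma 3.58.1 in R 4.3.3 (lmFit, eBayes) with host genotype as a block; the adjusted p is Benjamini-Hochberg over all genes, with a threshold of 0.05. A term for class by host genotype tested their difference. The method was tested on simulated data. Single values were compared by permutation tests. Named genes were, per direction, the 15 of lowest p with a log2 difference of at least 1, of which the text gives a part, up to 4 members of lowest p per list, Tgfb1, Csf1, Il34 and Ccl2, and the 3 of lowest p per direction between host genotypes; other members named with a bare value, and those of the closing section, were chosen after their values were seen. The 33 lists hold 478 genes, of which 382 were measured. The tumors, score genes and lists were chosen with earlier results of these data known. The promoter motif shown was chosen after the counts of all 4 searched were seen. Whether several tumors came from 1 host is not labelled, and the p-values cover the spread among these tumors. The number of arrays limits the precision; signal above background per probe was not analysed here. Trp53 is not reported here. Plots were drawn with matplotlib 3.10.9.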

Additional observations from a re-analysis of the deposited data

Results flagged for a closer look

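Single tumors stood far from the other tumors of their group in 66 of 654 groups of 6 to 9 tumors examined. Chance alone flags about 1 in 20 such groups, and the values of 1 tumor are not independent of each other. No explanation was tested.

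Tumor 16, a macrophage-poor tumor of an irradiated WT host, differed most often. It was lowest of its 8 tumors in Pik3r5 (5.44), Arrb2 (8.45), Inpp5d (7.13), Spi1 (6.85), Ccl9 (7.24), Kit (8.60), Rab25 (8.56), Esrp2 (7.16), Elf5 (8.66), Krt18 (11.07), Tgfbi (8.49) and Havcr2 (5.26), and highest in Bambi (9.86) and Tagln (12.46). Its list means were lowest for complement (7.72), Fc receptor (8.35), lysosomal (11.27), Toll-like receptor (7.18), MHC class I (9.73), epithelial junction (8.88), luminal (9.08) and TGF-beta (9.02) genes, and highest for basal (10.49) and mesenchymal (8.86) genes.

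Tumor 46, a macrophage-rich tumor of a sham-irradiated WT host, was highest of its 8 tumors in Pecam1 (12.26), Ptprb (9.83), Tgfb1 (11.34), Alas2 (12.68) and Jam2 (9.16) and lowest in Cd86 (6.78), Mki67 (10.16) and Havcr2 (5.87). Its list means were highest for endothelial (11.25), erythrocyte (9.99), mast cell (8.29) and lipid handling (11.28) genes.

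Tumor 52, a macrophage-poor tumor of a sham-irradiated Het host, was lowest in Itga4 (4.87), Irf8 (6.36), Nrros (6.72), Tgfb1 (6.24) and the dendritic cell (5.99) and checkpoint (6.80) means, and highest in the mast cell mean (8.09). Tumor 24 (macrophage-rich, irradiated WT host) was highest in Cd3g (9.54), Jchain (10.92) and the B cell mean (9.82).

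Other macrophage-rich tumors stood apart in Fcgr2b (12.56) and Fcgr3 (11.96; tumor 29, Het, irradiated), Col9a2 (6.68) and Csf3r (9.46; tumor 23, Het, irradiated), Tfrc (12.20), Mmp3 (8.57) and the inflammatory mean (6.92; tumor 35, Het, irradiated), H2-DMa (7.62) and Jam2 (7.03; tumor 15, Het, sham), Lppos (7.70; tumor 5, WT, irradiated) and the basal mean (10.72; tumor 19, Het, sham). Other macrophage-poor tumors stood apart in Papss2 (6.81; tumor 39, WT, irradiated), Mgl2 (5.51) and the luminal mean (11.72; tumor 32, Het, irradiated), Ccl24 (6.33; tumor 1, Het, irradiated), Col3a1 (11.09; tumor 51, Het, irradiated), Alas2 (6.85; tumor 21, WT, irradiated), 18S (12.36; tumor 53, WT, irradiated), the 3′ minus 5′ difference (0.30; tumor 54, WT, irradiated) and the fibroblast and matrix mean (9.35; tumor 3, WT, sham).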

How the results depend on the processing

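Every alternative left more genes (or probe sets, where these were counted) higher than lower in macrophage-rich tumors, beside 1679 genes higher and 1420 lower. With all probe sets tested singly, 2607 probe sets were higher and 2404 lower, which are not counts of genes. Gene counts moved by over 1.5 times with WT tumors alone (637, 292), Het tumors alone (356, 117), the epithelial junction score as a covariate (325, 28) and the 18S value as a covariate (1020, 579). The same held for the score as a number over 56 tumors (2334 lower) and the ranking without Mrc1 (1097, 719), which shared 11 macrophage-rich and 9 macrophage-poor tumors with the full score. Gene counts also moved with the alternatives chosen after seeing the data, namely tumors with an epithelial junction score of at least 9 (238, 14) and no arrays of 18S below 11 (1062, 648). The host genotype subsets and the subsets by junction score and 18S hold fewer tumors. The cause of these moves was not tested, in the subsets or elsewhere. Leaving out 1 tumor gave 1470 to 1856 higher and 1169 to 1701 lower. The count between host genotypes was 0 in all 3 alternatives. Of 121 genes named and tested here, 111 were called. With the epithelial covariate 69 of these were still called, and in the tumors of junction score at least 9 50 were. Single values changed sign for Tap1 (0.17 in WT tumors, 0.23 with the epithelial covariate, 0.25 without Mrc1, 0.06 at junction scores of at least 9), Usp18 (0.33 in WT tumors, 0.12 without Mrc1) and Kit (0.15 with the epithelial covariate); of these Kit had been called. Of 94 other probe sets of 54 named genes, 86 gave the same call. No paired analysis was possible because replicate numbers do not recur across groups.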

Other observations

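Several list members not described above may interest a reader of macrophage biology; they were picked after their values were seen. Folr2, a folate receptor, had a log2 difference of 1.45 ± 0.30 (SE, n = 14 each; limma adjusted p = 0.00124) and Lyve1, a hyaluronan receptor also of lymphatic vessels, of 2.28 ± 0.63 (adjusted p = 0.0100). In WT hosts Lyve1 ran from 5.04 to 12.93 (median 7.07) in macrophage-rich tumors, against 4.76 to 6.91 (median 4.95) in macrophage-poor tumors, so a few tumors were far above the rest. Ccr2, the receptor of monocytes for Ccl2, rose by 1.59 ± 0.28 (adjusted p = 0.000231), and Cx3cr1, the fractalkine receptor, by 0.96 ± 0.22 (adjusted p = 0.00214). With the epithelial junction score as a covariate Ccr2 passed (adjusted p = 0.0251) and Folr2, Lyve1 and Cx3cr1 did not (adjusted p = 0.149, 0.258 and 0.128). Mmp13, a collagenase, rose by 3.13 ± 0.59 (adjusted p = 0.000492) and passed with the covariate (adjusted p = 0.0204).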
